A study of Mus musculus with 2 samples.

Results

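Injury of the kidney tubule is followed by a characteristic set of transcripts, and 10 of these marker genes were followed here in arterioles from wild type and RBP-J cKO mice. They are Lcn2, Havcr1, Clu, Spp1, Krt20, Krt18, Krt8, Vim, Cd44 and Vcam1, each found by its symbol in the deposited gene annotation, and they stand among 22270 named genes measured. The genes were selected on the difference between these same 2 arrays, as an earlier look at the RMA values had shown it, so their direction is given as a description and is no evidence of its own. All 10 have 1 probe set each.

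The series holds 2 Affymetrix arrays of preglomerular arterioles, the small vessels that feed the glomeruli and carry the renin cells, collected magnetically from collagenase-digested cortex after iron oxide perfusion. The wild type array carries RNA pooled from 3 mice, 2 males and 1 female, with Ren1d+/+. The RBP-J cKO array carries RNA pooled from 4 males with Ren1d+/cre. Both pools share homozygous floxed RBP-J (flox/flox), an R26R reporter of ECFP, the mixed background of 129Sv and C57Bl6 and the age of 3 months. They differ in the cre placed at 1 allele of Ren1d, which removes RBP-J, the DNA-binding partner of Notch receptors, from cells that express or once expressed renin. With 1 array in each group there is no spread between replicates, no test of the genotype and no p-value. Pooling leaves the variation between animals unmeasured, and genotype and sex composition cannot be told apart.

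When tubule cells are injured they lose part of their specialised function, return to a simpler epithelial state and secrete proteins that can be measured in urine. Lipocalin 2 and KIM-1 are the best known of these proteins. Keratins, vimentin, CD44 and VCAM1 mark the cytoskeletal and adhesive side of the same state, and several of them are also made in health by vessels, glomeruli, leukocytes or collecting ducts.

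All 10 genes read higher in the RBP-J cKO pool, from a log2 difference of 0.08 for Vim to 3.04 for Lcn2. Of the 11580 genes whose brighter array reached the median level of named probe sets, a log2 value of 7.56 called the floor here, 53.9% were higher by any amount. The floor kept 9 of the 10 members, Krt20 being the exception, and their median difference was 0.94. Over all genes above the floor the median was 0.02 and the differences spread around it with a standard deviation of 0.31. Lcn2, Havcr1 and Cd44 were at least 2-fold higher, while 0.855% of all genes above the floor passed that fold in this direction. At 1.5-fold the count was 6 of the members, with 4.11% of all genes. None was lower, and 0.199% of all genes were at least 2-fold lower. Lcn2, Havcr1 and Cd44 had wild type levels below the floor, and a member dim on 1 array passed the floor only through the array where it was bright, so these counts describe the members and support nothing beyond them.

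**Figure D1:**
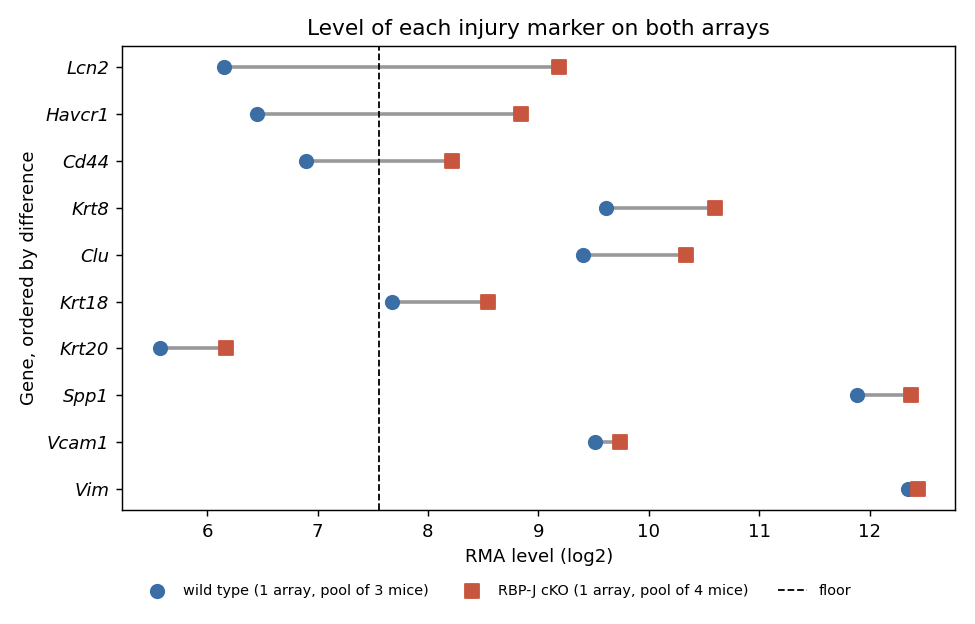
RMA level on the log2 scale (horizontal axis) of each of the 10 injury markers on the wild type array (circles) and the RBP-J cKO array (squares), 1 pooled RNA each. The dashed line is the floor of 7.56, and the lines between symbols are to be compared within a gene only. The square lies to the right of the circle in every row, by most for Lcn2 and by least for Vim, and both Krt20 values lie left of the floor.

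Lcn2 encodes lipocalin 2, or NGAL, a secreted protein that captures iron-carrying siderophores and is released by injured tubule and by neutrophils. Its RMA level was 6.15 for the wild type pool and 9.19 for the cKO pool. The difference of 3.04, an 8.21-fold higher value in cKO, was the first of 11580 genes in rank, although with the dChip values it was 2.39 and ranked 2. By dChip, in the authors' deposited table, its intensity went from 139 to 729, and their fold of 5.25 had bounds of 3.96 and 7.68. The wild type level lay below the floor, so the size of the difference is uncertain, as it is for Havcr1 and Cd44.

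Havcr1 encodes KIM-1, a phosphatidylserine receptor with which injured proximal tubule cells take up dying neighbours. It read 6.45 in wild type and 8.84 in cKO, a difference of 2.39 or 5.25-fold, ranked 3. With the dChip values the difference was 2.91 and the first in rank, so the order of Lcn2 and Havcr1 turned with the processing. The authors' deposited table gives Havcr1 intensities of 113 and 852 and a fold of 7.53, bounded by 6.36 and 9.18.

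The genes nearest to these in the size of their difference over the 2 arrays were few. Between Lcn2 and Havcr1 stood Aoc1, a diamine oxidase gene, at 2.48, and just below Havcr1 stood the lysozyme gene Lyz2 at 2.13. Cd44, 37 in rank, lay between S100g, the gene of the calcium carrier calbindin-D9k, at 1.34, and the chemokine gene Ccl9 at 1.31. Gene models without a proper symbol are left out of this order, and 1 of them lay between Cd44 and Ccl9, which ranked 39. This likeness is in size alone.

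The start regions of Lcn2 and Havcr1 are shown because these genes had the largest differences of the set, and those of Krt8 and Krt18 because the 2 genes lie side by side among protein-coding genes and had like differences. Each line gives the 250 bases before the RefSeq transcript start (GRCm38.p6, most upstream start where several are listed), written 5′ to 3′ along the gene, with capitals marking matches to the searched motifs.
Lcn2, chr2:32387740-32387989, minus strand: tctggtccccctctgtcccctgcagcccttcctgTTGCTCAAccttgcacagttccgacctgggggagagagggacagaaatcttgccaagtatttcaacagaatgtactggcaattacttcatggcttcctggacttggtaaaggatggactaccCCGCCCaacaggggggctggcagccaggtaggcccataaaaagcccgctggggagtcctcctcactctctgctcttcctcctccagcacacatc
Havcr1, chr11:46739973-46740222, plus strand: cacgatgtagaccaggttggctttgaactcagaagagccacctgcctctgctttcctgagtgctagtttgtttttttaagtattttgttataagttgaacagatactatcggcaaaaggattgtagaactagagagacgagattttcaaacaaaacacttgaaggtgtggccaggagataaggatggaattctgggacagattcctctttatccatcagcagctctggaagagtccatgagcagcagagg
Krt8, chr15:102004343-102004592, minus strand: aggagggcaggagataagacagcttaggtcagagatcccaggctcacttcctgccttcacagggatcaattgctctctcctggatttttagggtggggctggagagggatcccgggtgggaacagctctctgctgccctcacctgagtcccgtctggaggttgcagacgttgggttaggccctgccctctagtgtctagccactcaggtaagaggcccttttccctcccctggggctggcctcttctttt
Krt18, chr15:102027966-102028215, plus strand: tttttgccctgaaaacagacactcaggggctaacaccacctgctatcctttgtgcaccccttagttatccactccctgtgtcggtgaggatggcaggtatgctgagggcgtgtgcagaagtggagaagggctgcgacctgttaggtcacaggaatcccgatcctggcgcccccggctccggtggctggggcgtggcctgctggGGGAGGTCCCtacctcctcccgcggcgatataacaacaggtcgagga

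The motifs searched, on both strands, were the NF-kB motif, TGANTCA for AP-1, TTCNNNGAA for STAT factors, TTGCNNAA for C/EBP factors, TATAAA for the TATA box and GGGCGG for the GC box. RefSeq windows were found for 8 of the 10 members, and not for Clu and Vcam1. Lcn2 held TTGCTCAA at bases -216 to -209 from the start, a C/EBP match that 9.56% of 32851 windows of this length hold, and a GC box match on the opposite strand at -94 to -89, a motif in 32.7% of windows. No other member's window held either motif. TATAAA was in the windows of Spp1, Krt20 and Vim, and in 12.4% of all windows. The NF-kB motif, present in 7.25% of windows, was matched by GGGAGGTCCC at -47 to -38 of Krt18, where the letters fit the motif on either strand, and in the window of Vim, where matches overlap. AP-1 and STAT letters, in 6.75% and 7.02% of windows, were in none of the 8. Matches to different motifs did not overlap. These are matches of letters within the window and say nothing about binding.

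Cd44 and its partners come next, as the adhesive side of the set. CD44 is the main receptor of hyaluronan and is carried by leukocytes and by regenerating tubule cells. It read 6.89 in wild type and 8.22 in cKO, a difference of 1.33 or 2.51-fold. The dChip difference was close to this at 1.34, and the fold in the authors' deposited table was 2.54, between bounds of 2.41 and 2.67. In that table Lcn2, Havcr1 and Cd44 were the 3 members with the mark of the authors' comparison filter, a mark that 0.915% of genes above the floor carry with a positive fold.

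Of 12 genes of hyaluronan metabolism and CD44 binding, 7 were above the floor, 3 of them higher and 4 lower, with a median of -0.08. That median turned to 0.11 with no floor, where 7 of the 12 genes were higher, and to 0.19 with a floor at the 75th percentile. Cd74, the invariant chain gene of class II antigen presentation whose product pairs with CD44 as a receptor for MIF, was higher by 0.94, from 10.63 to 11.58. Mif differed by 0.24, and Ezr and Rdx, which encode linkers between CD44 and actin, by 0.19 and -0.17. The hyaluronan synthase genes Has1, Has2 and Has3 were below the floor on both arrays.

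Vcam1 encodes the leukocyte adhesion molecule VCAM1, present on activated endothelium and on proximal tubule cells that fail to recover after injury. It read 9.51 in wild type and 9.74 in cKO, a difference of 0.22 or 1.17-fold, and 22.4% of genes above the floor had a difference at least as large. The dChip difference was 0.36, and the fold in the authors' deposited table was 1.28, bounded by 1.22 and 1.35. The list of Vcam1 partners and related genes mostly went the other way above the floor. Of 6 above the floor 5 were lower, with a median of -0.35. Among the lower genes were Itga4 at -0.50, whose product forms the VCAM1-binding integrin with that of Itgb1 (-0.20), and Itga9 at -0.51. Icam2, the gene of another adhesion molecule, differed by -0.56. With no floor 5 of the 10 listed genes were higher and the median was -0.05.

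Spp1 encodes osteopontin, a secreted phosphoprotein that binds integrins and CD44 and is made by distal nephron in health and more widely after injury. Its level was 11.88 in wild type and 12.37 in cKO. The difference was 0.49, or 1.41-fold, and 0.58 with the dChip values, beside a fold of 1.5 that the authors' deposited table gives. All 9 genes listed for osteopontin-binding integrins were above the floor, 4 higher and 5 lower, with a median of -0.20. Itgb6, an epithelial subunit, was higher by 0.62, while Itga8, Itga9 and Itga4, which mesangial and other non-epithelial cells express, differed by -0.51, -0.51 and -0.50.

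Clu encodes clusterin, an extracellular chaperone shed by damaged tubules. It read 9.40 in wild type and 10.34 in cKO, a difference of 0.94 or 1.92-fold, ranked 121. The dChip values gave 0.93, and the fold of 1.9 in the authors' deposited table had bounds of 1.71 and 2.13 that reach past 2-fold. Clu and Cd44 gave nearly the same difference in both processings, where Lcn2 and Havcr1 did not.

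The keratins are the filament proteins of epithelia, where a type II chain such as keratin 8 pairs with a type I chain such as keratin 18. Krt8 read 9.61 in wild type and 10.60 in cKO, and Krt18 read 7.67 and 8.55. The differences were 0.99 and 0.87, so Krt8 at 1.99-fold fell just short of 2-fold and the partners differed from each other by 0.12. Both were smaller with the dChip values, at 0.85 and 0.72, and the folds in the authors' deposited table were 1.8 and 1.65. Krt20, a keratin of urothelium and gut that appears in injured tubule, stayed below the floor on both arrays, at 5.57 and 6.17, so its difference of 0.60 carries little weight.

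Of 52 keratin genes measured, 5 were above the floor. Besides Krt8 and Krt18 these were Krt7 at 0.32, Krt80 at -0.24 and Krt33b at -0.24. Krt19, another keratin of simple epithelia, was below the floor and went from 6.09 to 6.90. The list of further keratins and epithelial junction genes had a median of 0.32, with 7 of 9 genes higher. Its largest differences were Epcam at 0.76, the E-cadherin gene Cdh1 at 0.58, the desmoplakin gene Dsp at 0.40 and Pkp2 at 0.35. Those 4 genes were higher by less than Krt8 and Krt18. The plakoglobin gene Jup of the same list was lower, at -0.25, and the plectin gene Plec was near 0, at 0.02 with RMA and -0.02 with dChip.

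Vim encodes vimentin, the filament protein of mesenchymal, endothelial and glomerular cells that dedifferentiated tubule cells also make. It read 12.35 in wild type and 12.44 in cKO, a difference of 0.08, which turned to -0.05 when differences were centred on a loess trend over the mean level. The dChip difference was 0.13, and the fold in the authors' deposited table was 1.09 between bounds of 1.07 and 1.11. Of the genes above the floor 39.5% had an RMA difference at least as large, so Vim stood within the bulk of genes. Among 5 other intermediate filament genes above the floor, Nes, the nestin gene of podocytes and vessels, was lower by 0.71, from 10.28 to 9.57. Lmna, Lmnb1 and Sync differed by 0.18, 0.15 and 0.15, and the muscle filament gene Des by -0.07. The sign of Sync turned with the dChip values.

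**Figure D2:**
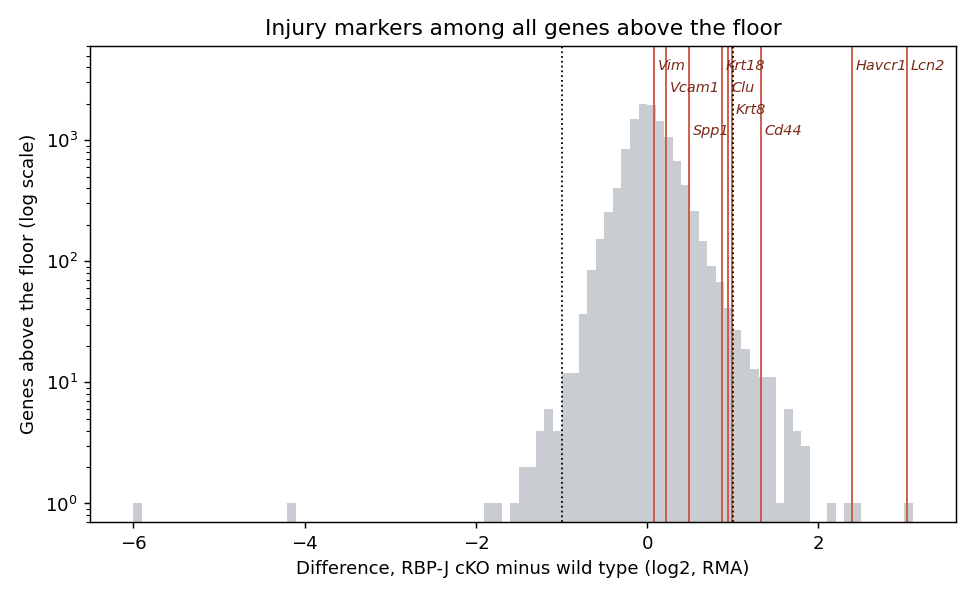
Number of genes above the floor, on a log axis, by log2 difference between the RBP-J cKO and wild type arrays in bins of 0.1. Solid vertical lines mark the 9 injury markers above the floor and dotted lines a 2-fold difference either way. Lcn2 and Havcr1 stand at the right edge of the distribution, Krt18, Clu and Krt8 lie just left of the 2-fold line, and Vim lies within the bulk.

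With dChip all 10 genes again had a positive difference, larger than RMA for 5 and smaller for 5. The RMA difference lay within the bounds of the authors' deposited fold for 3 members, Clu, Krt18 and Cd44, and outside them for the other 7. The sources used here do not give the confidence level of these bounds, which do not cover the variation between animals or the choice of processing.

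**Figure D3:**
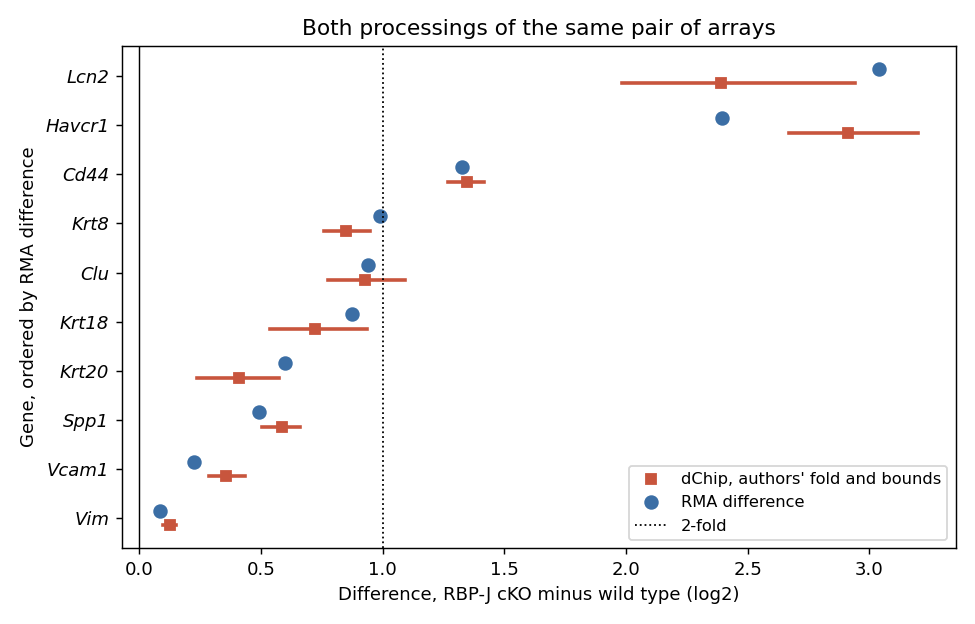
Log2 difference between RBP-J cKO and wild type for the 10 injury markers from RMA (circles) and from the authors' dChip fold (squares, with bars for the authors' bounds), with the dotted line at 2-fold. Every symbol lies above 0, and the processings disagree most for Lcn2 and Havcr1.

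The receptors and relatives of the secreted and membrane markers were mixed. For lipocalin 2, the receptor gene Slc22a17 differed by -0.03, and the endocytic receptor genes Lrp2 (megalin) and Cubn (cubilin) of proximal tubule by 0.28 and 0.32. The hepatocyte growth factor receptor gene Met, from a pathway linked to lipocalin 2 in epithelia, was higher by 0.72, from 9.64 to 10.36. The other relatives of Havcr1 lie beside it, with Timd2 and Timd4 its nearest protein-coding neighbours on chromosome 11. Timd2, a mouse gene whose product binds ferritin, read 7.30 in wild type and 8.75 in cKO, a difference of 1.45. Its wild type level lay below the floor, so the size of this difference is uncertain. The fold of Timd2 in the authors' deposited table was 2.93, between 2.75 and 3.14. Timd4 and Havcr2, the family members of macrophages and T cells, were below the floor with differences of -0.18 and 0.27, and Gna12, encoding a G protein subunit that binds KIM-1, differed by 0.10. Havcr1 and Timd2 are related in sequence, and whether probes of 1 gene also bind transcripts of the other was not tested.

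Other genes of the tubular injury response were higher more often than not, each by less than Lcn2 and Havcr1. Of 41 listed genes 33 were above the floor, with 26 higher and 7 lower and a median of 0.26. Over all genes above the floor 53.9% were higher. At least 2-fold higher were 2 of the 33, beside the background of 0.855%. These were the protease inhibitor gene Timp1 at 1.71 (6.80 and 8.51) and the monocyte chemokine gene Ccl2 at 1.16 (7.36 and 8.52). Both had wild type levels below the floor and entered only through the cKO array, so the count is a description only. The complement gene C3 followed at 0.84 and Lgals3, the galectin 3 gene of macrophages and tubule, at 0.80. The fibrinogen chain genes Fga and Fgg, which injured tubule makes, stayed below the floor, reading 6.25 and 7.35 for Fga and 6.21 and 7.37 for Fgg. Sox9, a transcription factor gene of regenerating tubule, differed by 0.45 with RMA and by -0.05 with dChip.

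In the list for proximal tubule cells that fail to recover 8 of 13 genes were higher, beside 53.9% of all genes above the floor. The list median was 0.07. That median turned to -0.02 with a floor at the 75th percentile. Bcat1, an enzyme gene of branched-chain amino acid breakdown, was higher by 1.11 with RMA and by 1.85 with the dChip values. The ciliary gene Dcdc2a was higher by 0.82. The wild type level of Bcat1, 7.07, lay below the floor. The cytokine gene Il34 differed by 0.40 and the ceruloplasmin gene Cp by 0.37. Genes of the embryonic and mesenchymal programme were divided, 6 higher and 8 lower, with a median of -0.06 that turned to 0.10 with a floor at the 75th percentile. The fibronectin gene Fn1 differed by 1.02, whereas Snai2 and Zeb1, transcription factor genes of epithelial to mesenchymal transition, differed by -0.48 and -0.44. Krt8 and Krt18 were higher, and whether their differences and those of Snai2 and Zeb1 arise in the same cells was not tested.

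Genes of NF-kB and acute phase signalling, which induces Lcn2, Vcam1 and Ccl2 in many cells, had a median of 0.18. Of these 15 of 18 were higher, beside 53.9% of all genes above the floor. Socs3 differed by 0.89, the tumour necrosis factor gene Tnf by 0.86, its feedback inhibitor gene Tnfaip3 by 0.77 and Il1b by 0.50. The wild type level of Tnf, 7.12, lay below the floor. Il6 was below the floor on both arrays, at 4.62 and 6.28.

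**Figure D4:**
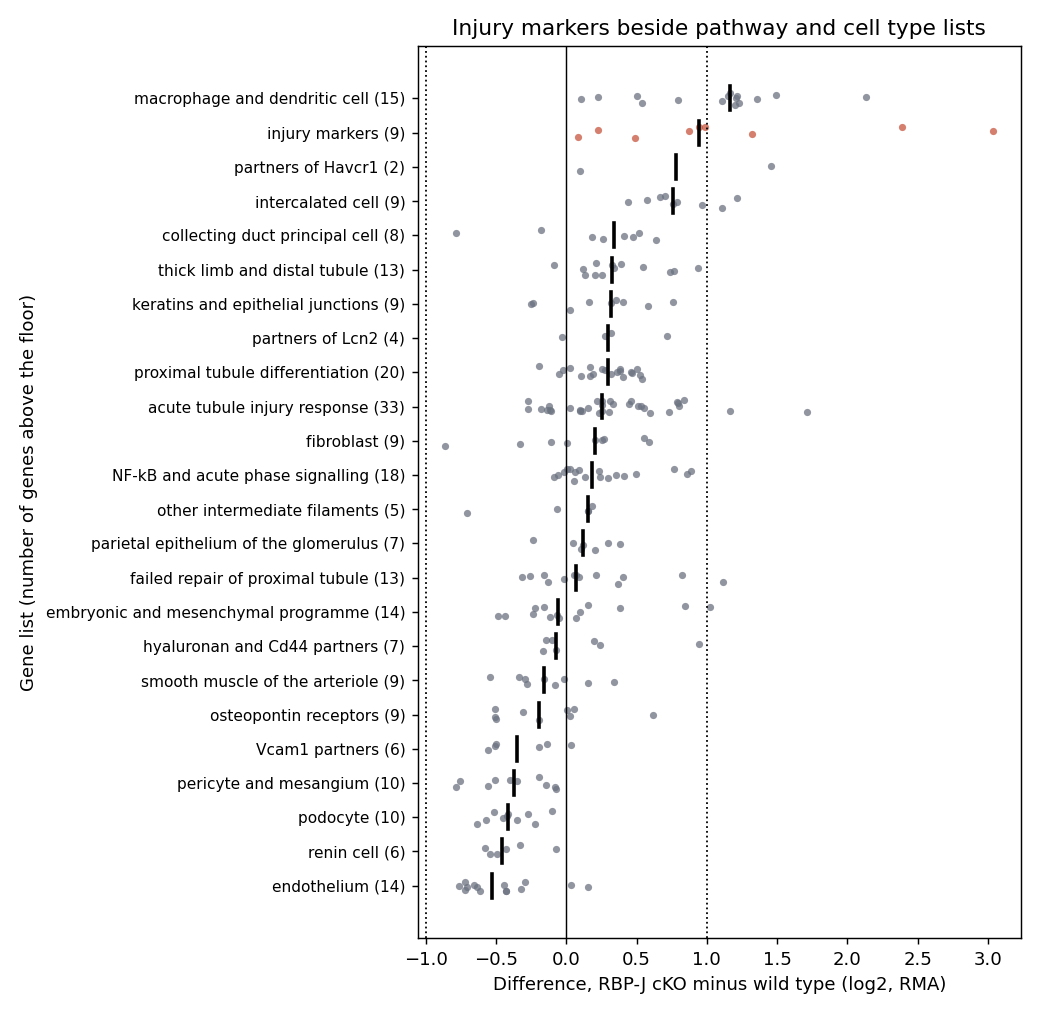
Log2 difference between the RBP-J cKO and wild type arrays for each gene above the floor (points) in the injury marker set and in pathway and cell type lists, with black bars for medians and dotted lines at 2-fold. Lists with fewer than 2 genes above the floor and the sex list are left out, and points are spread vertically for legibility. The injury markers, with a median of 0.94, lie between the macrophage list at 1.17 and the intercalated cell list at 0.76, with only the 2-gene list of Havcr1 partners beside the latter, while endothelium, podocytes, mesangium, smooth muscle and renin cells have medians below 0.

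Genes that define other cells differed too. Tubule and macrophage genes were mostly higher, like the injury markers, while endothelial, podocyte and mesangial genes were mostly lower. In these bulk preparations fewer cells of a type and less RNA per cell cannot be told apart. Tubule was present in both pools. All 20 genes of differentiated proximal tubule were above the floor, and 17 of them were higher in cKO, with a median of 0.30 and a summed linear level of 77811 in wild type and 93293 in cKO. Of the genes of thick limb and distal tubule 12 of 13 were higher (median 0.33, sums 28856 and 33884), and those of collecting duct principal cells in 6 of 8 (median 0.34, sums 5456 and 5668). All 9 intercalated cell genes were higher, with a median of 0.76 and sums of 4462 and 7451. Injury marker genes and most listed genes of differentiated tubule were both higher, and the part of tubule content in the marker differences was not tested.

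Of the leukocyte lists, that of macrophages and dendritic cells alone had more than 1 gene above the floor. Macrophage and dendritic cell genes were higher in 15 of 15 cases above the floor, with a median of 1.17. Their sums over 18 genes were 3678 and 7748. At least 2-fold higher were 10 of the 15, beside 0.855% of all genes above the floor. Several of the 10 had wild type levels below the floor and entered only through the cKO array, so this count is a description only. Macrophages can express Cd44, Spp1 and Vim, and their part in those values was not tested. Neutrophils also store lipocalin 2. The part of neutrophils or other leukocytes in the Lcn2 value was not tested. None of the 12 neutrophil genes reached the floor on either array. Their levels lay between 4.67 and 6.71, their sums were 754 and 728, and S100a8, S100a9 and Ly6g read 4.75, 6.17 and 5.99 in wild type and 5.21, 6.41 and 5.90 in cKO. None of the 11 urothelium genes reached the floor either, with sums of 1327 and 1230, beside Krt20, which is also a urothelial gene. Of 10 measured T and NK cell genes 1 was above the floor, and the sums were 931 and 1177.

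Most vascular and glomerular genes, from cells that carry Vim and Vcam1 in health, were lower, but parietal epithelial genes were mostly higher. Lower were 12 of 14 endothelial genes (median -0.53, sums 35979 and 25672), 10 of 10 podocyte genes (median -0.42, sums 25364 and 20093) and 10 of 10 pericyte and mesangial genes (median -0.37, sums 14123 and 11083). Smooth muscle genes, which define the labelled arteriole, were above the floor in 9 of 11 cases, 7 of them lower, with a median of -0.16 and sums of 11272 and 10392. Of parietal epithelial genes 6 of 7 were higher (median 0.12, sums 4482 and 5083), and of fibroblast genes 6 of 9 (median 0.21, sums 7290 and 7694). All 6 renin cell genes above the floor were lower, with a median of -0.46 and sums of 6283 and 4964. Ren1, the renin gene, read 10.77 and 10.19. The cKO pool has cre at 1 allele of Ren1d, and the part of this allele in the Ren1 value was not tested. Rbpj itself differed by 0.02, or -0.02 with the dChip values. Cre acts only in the renin lineage, and the position of the Rbpj probes relative to the floxed part is not known here, so this value tests no label. The sex-linked and sex-biased list, which mixes genes of female and male bias, had 8 of 11 genes higher, with differences from -5.99 to 1.83. The 3 lower were Xist at -5.99, Cyp4a14 at -4.11 and Prlr at -1.41, all with cKO levels below the floor. The Y-linked genes Ddx3y, Kdm5d, Uty and Eif2s3y were higher, by 0.82 to 1.16. The part of sex in the injury markers was not tested.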

How the data were processed

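Gene expression was measured on 2 arrays, 1 pool per genotype. The deposited log2 values (34760 probe sets) were made with RMA, R 2.15.0 and limma 3.12.1, per the submitters' processing notes, which give no role for each. Per the file headers, the authors also ran dChip, and that deposited table has a linear intensity per array for 35512 probe sets. The deposited fold is a signed score that the authors computed with dChip, per the file headers, cKO over wild type and negative for genes lower in cKO, with a pair of bounds. Genome build and array annotation version: not given in the sources used here.

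Members were matched by the symbol before the first colon in the gene column. Other names were updated through RefSeq accessions, symbols or synonyms (GRCm38.p6 gene table, names only). Of 22270 genes, 1323 had several probe sets, and the one with the highest mean RMA value was used. The floor on the brighter array is the median of named probe sets. Every difference subtracts the wild type log2 value from the cKO one. List sums add linear RMA values over all measured genes of a list.

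The members and the 27 lists were chosen with earlier results of these data known. The genes named are the members, Rbpj, Ren1, up to 4 genes per list with the largest absolute difference (all for lists with up to 5 above the floor), and the genes next to a 2-fold member in rank. This was kept to the lists nearest to the members, and 1 gene that the rule would name is not reported here. Jup, Plec, Krt7, Krt19, Krt80, Krt33b, Fga, Fgg, Il6, Sox9, Timd4, Havcr2, Has1, Has2, Has3, S100a8, S100a9 and Ly6g are outside this rule and were picked with their values in view. The same holds for the genes named from the sex list. Alternatives were the dChip values, the mean over probe sets, no floor, a stricter floor (75th percentile), differences centred by the median or by a loess trend, and a 1.5-fold threshold. Counting was tested on simulated data. The software was Python 3.11.15 with NumPy 2.4.6, pandas 2.3.3, matplotlib 3.10.9 and statsmodels 0.14.6. The number of arrays limits the precision, and RMA makes the overall distributions alike.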

Additional observations from a re-analysis of the deposited data

How the results depend on the processing

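No paired analysis was possible because each group has 1 array. Of the members and list medians, those at or past 2-fold kept their direction under each alternative run. Smaller values turned sign for Vim and for the medians of the hyaluronan, embryonic, failed repair and other intermediate filament lists, as given below. The failed repair median turned from 0.07 to -0.02 with the floor at the 75th percentile, a shift too small to be counted as moved. The 2-fold genes named from other lists were compared with dChip only. Differences and medians were counted as moved when they shifted by more than 0.10 on the log2 scale. That limit is the standard deviation across genes of the difference between dChip and RMA. A count of members was taken as moved when it changed by more than 1.5-fold. Together 30 of 205 values and counts moved. With the floor at the 75th percentile the members at least 2-fold higher numbered 1 (Lcn2) of those left, since Havcr1 and Cd44 no longer entered, and their median was 0.72. At 1.5-fold the count was 6. Single members moved with the dChip values to 2.39 for Lcn2, 2.91 for Havcr1, 0.72 for Krt18, 0.85 for Krt8 and 0.36 for Vcam1, and with loess centring to 0.36 for Spp1 and -0.05 for Vim. List medians moved with loess centring to 0.17 for partners of Lcn2, -0.31 for osteopontin receptors, 0.17 for proximal tubule, 0.22 for thick limb and -0.63 for endothelium. With no floor, which adds dim genes, they were 0.10 for partners of Havcr1, 0.11 for hyaluronan and Cd44 partners, -0.05 for Vcam1 partners, -0.07 for other intermediate filaments, 0.18 for principal cells and 0.37 for T and NK cells. With the stricter floor, which leaves fewer genes, they were 0.10 for partners of Havcr1, 0.19 for hyaluronan and Cd44 partners, -0.07 for other intermediate filaments, 0.10 for the embryonic and mesenchymal programme, 1.00 for macrophages, 0.01 for fibroblasts and 1.15 for the sex list. With dChip the median was -0.05 for other intermediate filaments and 1.05 for macrophages. The cause of the shifts with dChip and loess was not tested.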
